A study of Homo sapiens with 7 samples.

Results

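The 10 genes described here encode the NF-kappaB transcription factor subunits NFKB1, NFKB2, REL, RELA and RELB, the inhibitor NFKBIA and the regulators TRAF3, BIRC3, CYLD and MAP3K14, which are recurrently mutated in multiple myeloma. They were taken by name from the 60666 genes of a bulk RNA sequencing study, and each of the 10 was found, was paired with a single Ensembl identifier and passed the filter on low counts that left 18281 genes. The 7 libraries are labelled as RPMI 8226, a human myeloma line, myeloma being a cancer of antibody-secreting plasma cells. There were 2 libraries of unedited cells (WT), 2 of cells with HDAC6 knocked out (KO) and 3 of cells in which 2 residues of the HDAC6 ZnF-UBP domain, which binds ubiquitin, were changed (RY). HDAC6 is a mainly cytoplasmic deacetylase. CRISPR-Cas9 was used for both edits, all cells shared the same serum-containing medium, and no treatment or time is given. The labels do not say how many clones each edited line came from or whether replicates were separate cultures, so p-values here reflect library-to-library spread alone, and that spread may be technical.

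The 3 libraries labelled RY went against the labelled cell type. The summed level of 12 plasma cell markers was 7955 to 9174 CPM (reads of a gene relative to the library size after TMM scaling) in WT, 5125 to 5997 CPM in KO and 367 to 402 CPM in RY. Of these markers, 11 were called lower in RY than in WT, with TNFRSF17 at 0 reads and POU2AF1 at 1 read over the 3 libraries, and XBP1 was the marker not called. In KO against WT 2 of the 12 were called lower and 0 higher, with a median log2 fold change of -0.07. JCHAIN alone averaged 5196 CPM in WT, 2156 CPM in KO and 0.421 CPM in RY. The summed level of 11 myeloid precursor markers was 123 to 161 CPM in WT, 56.6 to 59.1 CPM in KO and 1306 to 1499 CPM in RY. MPO alone averaged 58.9 CPM in WT, 1.80 CPM in KO and 980 CPM in RY, and CD33 68.0, 54.9 and 107 CPM. Of the 10 markers of this list that were tested, 8 were called higher and 1 lower in RY than in WT. CD14 went the other way, from 0.723 CPM in WT to 0.194 CPM in RY. The 9 early lymphoid and T lineage markers summed to 4.36 to 5.82 CPM in WT, 2.58 to 3.71 CPM in KO and 25.1 to 25.6 CPM in RY, with CD1A at 0 reads in every library and CD3D at 0 reads in WT and KO. RAG2 alone averaged 0.383 CPM in WT and 20.3 CPM in RY. Of the 4 markers of this list that were tested, 2 were called higher and 1 lower in RY than in WT. The 8 B cell markers summed to 125 to 140 CPM in WT, 99.1 to 113 CPM in KO and 28.8 to 32.7 CPM in RY. BLK alone averaged 94.6 CPM in WT and 2.63 CPM in RY. Of the 7 B cell markers tested, 4 were called higher and 3 lower in RY than in WT. The correlation of log2 CPM over genes was 0.682 to 0.753 between a library labelled RY and any of the other 4, and at least 0.986 within every group. HDAC6 itself averaged 67.2 CPM in WT, 15.9 CPM in KO and 99.1 CPM in RY, which is a log2 fold change of -2.08 for KO against WT (adjusted p = 0.000189 by the quasi-likelihood test of edgeR). Totals ran from 31368968 to 42813888 counted reads per library. Every comparison with RY below rests on these 3 libraries, in which edit and cell identity cannot be told apart.

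NF-kappaB factors are dimers that wait in the cytoplasm, bound by inhibitors such as IkappaB-alpha, the product of NFKBIA. In the canonical pathway an IkappaB kinase complex marks the inhibitor for destruction and releases mostly RELA and REL dimers with p50, which is made from NFKB1. In the alternative pathway the kinase NIK, the product of MAP3K14, accumulates and triggers the processing of the NFKB2 product p100 to p52, which pairs with RELB. TRAF3 and the ubiquitin ligase BIRC3 keep NIK low, and CYLD removes ubiquitin chains from components of the canonical pathway. Plasma cells receive these signals from receptors such as BCMA, and NFKB1, NFKB2, REL, RELB, NFKBIA and BIRC3 are themselves known targets of NF-kappaB.

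Because several of the genes are known targets of the factor they belong to, the 250 bases before their annotated starts were searched for the kappaB consensus, the 10-base site that NF-kappaB dimers bind, on both strands, with overlapping matches allowed. Promoters of 9 of the 10 genes were in the RefSeq promoter table (GRCh38.p14), and RELB was not in it. Of their 15 windows 8 held at least 1 match, against 9.96% of all 35116 windows in the table. By gene, 7 of the 9 had a match in some window, against 11.8% of the 27305 genes in the table, and RELA and MAP3K14 had none. A match is only a run of letters and does not show that a factor is bound there. The 6 windows below are those of the 4 genes whose level in KO differed from WT at an adjusted p under 0.05 and of the pair that lay farthest from WT in opposite directions in the libraries labelled RY (TRAF3 and MAP3K14). NFKB2 has 3 windows in the table, and the one with the most matches is shown. Each reads 5′ to 3′ towards the start, with matches in capitals.
NFKB2, chr10:102394328-102394577, plus strand: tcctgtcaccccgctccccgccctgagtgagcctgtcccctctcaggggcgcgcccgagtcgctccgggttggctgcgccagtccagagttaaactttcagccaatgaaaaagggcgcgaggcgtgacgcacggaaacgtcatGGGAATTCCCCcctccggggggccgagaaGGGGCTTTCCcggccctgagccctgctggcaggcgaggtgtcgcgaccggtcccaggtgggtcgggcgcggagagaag
NFKBIA, chr14:35404750-35404999, minus strand: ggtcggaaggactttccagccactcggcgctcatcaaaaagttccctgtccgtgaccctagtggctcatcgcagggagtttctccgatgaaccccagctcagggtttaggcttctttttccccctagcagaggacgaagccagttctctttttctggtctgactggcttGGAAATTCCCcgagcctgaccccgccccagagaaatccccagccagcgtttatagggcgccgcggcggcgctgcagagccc
BIRC3, chr11:102317234-102317483, plus strand: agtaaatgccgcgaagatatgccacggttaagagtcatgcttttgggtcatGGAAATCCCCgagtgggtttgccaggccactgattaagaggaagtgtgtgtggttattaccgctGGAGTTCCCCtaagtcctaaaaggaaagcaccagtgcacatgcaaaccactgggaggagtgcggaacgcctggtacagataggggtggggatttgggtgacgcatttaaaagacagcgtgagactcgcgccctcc
REL, chr2:60881324-60881573, plus strand: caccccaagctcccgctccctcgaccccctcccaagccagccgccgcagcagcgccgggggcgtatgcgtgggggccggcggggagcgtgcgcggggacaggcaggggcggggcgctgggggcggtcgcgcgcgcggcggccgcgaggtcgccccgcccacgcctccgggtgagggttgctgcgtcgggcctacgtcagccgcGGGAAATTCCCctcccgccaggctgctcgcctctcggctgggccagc
TRAF3, chr14:102777199-102777448, plus strand: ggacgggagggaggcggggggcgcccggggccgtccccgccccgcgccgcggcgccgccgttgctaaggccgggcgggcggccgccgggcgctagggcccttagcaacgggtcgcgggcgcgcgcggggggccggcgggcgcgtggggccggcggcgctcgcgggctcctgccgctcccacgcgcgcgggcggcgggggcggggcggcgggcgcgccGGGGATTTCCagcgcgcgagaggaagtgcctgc
MAP3K14, chr17:45317021-45317270, minus strand: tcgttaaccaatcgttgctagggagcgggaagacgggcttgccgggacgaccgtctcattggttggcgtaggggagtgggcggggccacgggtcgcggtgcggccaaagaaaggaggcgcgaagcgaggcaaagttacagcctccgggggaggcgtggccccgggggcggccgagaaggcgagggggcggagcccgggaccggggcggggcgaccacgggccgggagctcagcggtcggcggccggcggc

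The match in TRAF3 began 33 bases before the start, that in NFKBIA 81 bases before it, and those in BIRC3 199 and 135 bases before it. In REL a pair of overlapping matches on opposite strands began 47 and 46 bases before the start. In NFKB2 the shown window had overlapping matches from 107 bases before the start and a further match 78 bases before it. Outside these windows CYLD had a match 189 bases before a start and NFKB1 a match 49 bases before a start, and another NFKB2 window had a match on both strands 176 bases before its start and a further one 21 bases before it. No binding was measured in these libraries.

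Levels of different genes were set side by side per kilobase of all annotated exons, which may be longer than the transcripts expressed, so the order depends on annotation too. By this measure RELA was the most abundant of the 10 in WT at 20.8 ± 2.24 CPM per kb (SD, n = 2). It was followed by NFKB2 at 13.2 ± 1.96, NFKB1 at 10.06 ± 0.475, NFKBIA at 9.77 ± 0.709, MAP3K14 at 9.77 ± 0.728 and CYLD at 7.71 ± 2.49. RELB stood at 3.35 ± 1.42 CPM per kb, BIRC3 at 1.78 ± 0.463, TRAF3 at 1.64 ± 0.235 and REL at 1.00 ± 0.0782. NFKB1, NFKBIA, MAP3K14 and CYLD lay within their SDs of their neighbours in this order, as did BIRC3 and TRAF3. In KO, NFKB2 at 19.5 ± 0.0341 CPM per kb stood level with RELA at 19.4 ± 0.425. In the libraries labelled RY (n = 3) the order was different: NFKB2 came first at 15.9 ± 1.06 CPM per kb and RELA second at 14.6 ± 0.431, TRAF3 at 8.18 ± 0.190 lay next to NFKBIA at 8.66 ± 0.0404, and MAP3K14 at 3.19 ± 0.312 lay next to CYLD at 3.44 ± 0.181 and REL at 3.05 ± 0.0507.

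**Figure D1:**
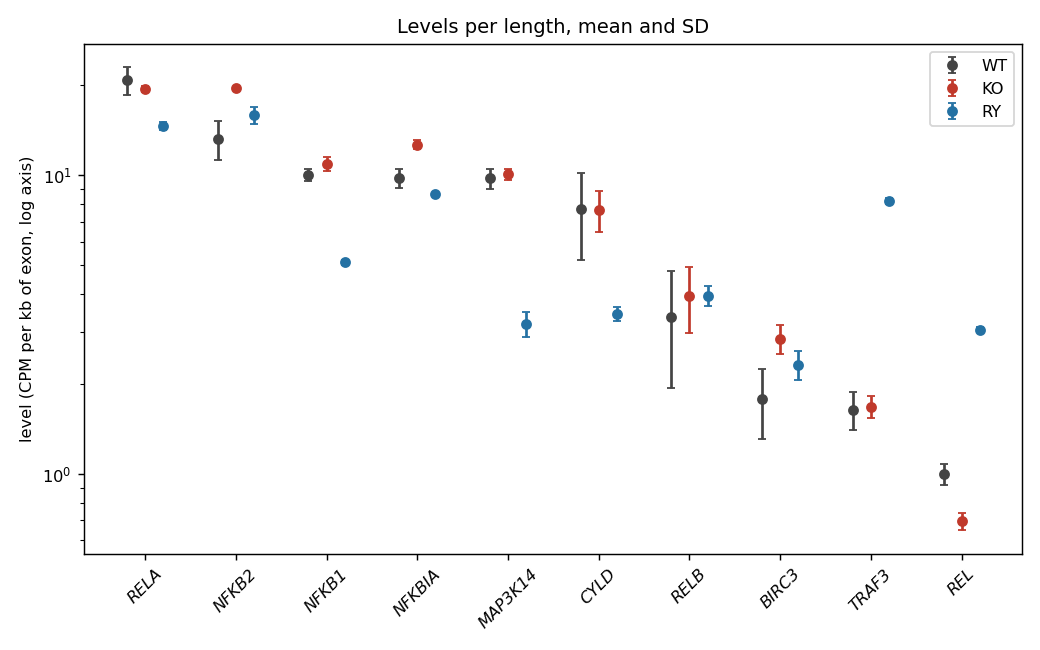
Level of each gene per kilobase of exon (CPM per kb, log axis), as the mean and SD of 2 WT, 2 KO and 3 RY libraries, ordered by the WT level. TRAF3 and REL stand at the low end in WT and KO and both lie higher in RY, where TRAF3 stands near NFKBIA and REL near MAP3K14, while MAP3K14, CYLD and NFKB1 lie lower in RY.

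The knockout was set against WT to ask how expression differs without HDAC6. None of the 10 genes was called between KO and WT, where called means an adjusted p under 0.05 over all 18281 genes and at least a 2-fold difference, a rule that called 10.9% of all genes. DESeq2 likewise called 0 of the 10, and 4 of the 10 had an unadjusted p under 0.05 in edgeR, against 27.6% of all genes. Those 4 genes also had an adjusted p under 0.05 at folds below 2, against 16.5% of all genes. NFKB2, BIRC3 and NFKBIA were higher in KO, against 6.04% of all genes, and REL was lower, against 10.4%. The groups did not overlap for 5 of the 10 genes, against 48.7% of all genes.

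NFKB2, BIRC3, NFKBIA and the lower REL are known both as parts of the pathway and as its targets, and so are NFKB1 and RELB. NFKB2, the precursor of the alternative pathway subunit, was at 53.1 and 65.5 CPM in WT and at 87.8 and 87.5 CPM in KO. Both KO libraries lay above both WT libraries, and the WT pair spread more widely than the KO pair. The log2 difference was 0.56 (SE 0.12, adjusted p = 0.0123), or 1.48-fold. The alternatives counted here and below include a crossed replicate block, WT replicate 1 with KO replicate 2, that was added after seeing the data. In edgeR it gave the lowest adjusted p for NFKB2 (2.35e-05) and was under 0.05 also for BIRC3, NFKBIA and REL. The adjusted p for NFKB2 ranged from 2.35e-05 to 0.0714 and was under 0.05 in 11 of the 14 alternatives, the exceptions being leaving out KO replicate 1 (0.0681), a fit of only WT and KO (0.0714) and a block for the replicate number (0.0535).

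BIRC3, a ubiquitin ligase also called cIAP2, was at 10.9 and 15.8 CPM in WT and at 19.6 and 23.0 CPM in KO. The groups did not overlap, although each pair of libraries differed by several CPM. The log2 fold change was 0.67 (SE 0.19, adjusted p = 0.0435), and it ran from 0.43 without WT replicate 1 to 0.96 without WT replicate 2. Its adjusted p was under 0.05 in 5 of the 14 alternatives. On leaving out a library it was under 0.05 only without WT replicate 2 (0.00185), and it was 0.0858 without WT replicate 1, 0.0816 and 0.166 without KO replicates 1 and 2, and 0.0769, 0.0520 and 0.0816 without RY replicates 1, 2 and 3, whose libraries add to the shared estimate of spread.

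NFKBIA, which encodes the inhibitor that NF-kappaB itself induces, was at 24.4 and 22.0 CPM in WT and at 29.3 and 30.8 CPM in KO, with no overlap. Its log2 fold change of 0.37 (SE 0.11, adjusted p = 0.0471) was the smallest of the 4. The adjusted p of NFKBIA stayed under 0.05 in 3 of the 14 alternatives, and among the left-out libraries only without WT replicate 1 (0.0212). It was 0.115 without WT replicate 2, 0.143 and 0.211 without KO replicates 1 and 2, and 0.101, 0.0735 and 0.108 without RY replicates 1, 2 and 3.

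REL, the subunit best known from lymphocytes, was at 12.4 and 13.9 CPM in WT and at 8.72 and 9.60 CPM in KO. Both KO libraries were lower (log2 fold change -0.52, SE 0.12, adjusted p = 0.0176). The adjusted p of REL was under 0.05 in 9 of the 14 alternatives. It was 0.139 without KO replicate 1, 0.0655 without KO replicate 2, 0.0505 without RY replicate 3, 0.151 in a fit of only WT and KO and 0.115 with the replicate block. The sum of the myeloid precursor markers, like REL highest in RY, was 123 to 161 CPM in WT and 56.6 to 59.1 CPM in KO. CD33 alone averaged 68.0 CPM in WT and 54.9 CPM in KO. Of the 10 markers tested, 5 were called lower in KO than in WT and 0 higher, with a median log2 fold change of -3.73. The part of these markers in the REL difference was not tested.

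**Figure D2:**
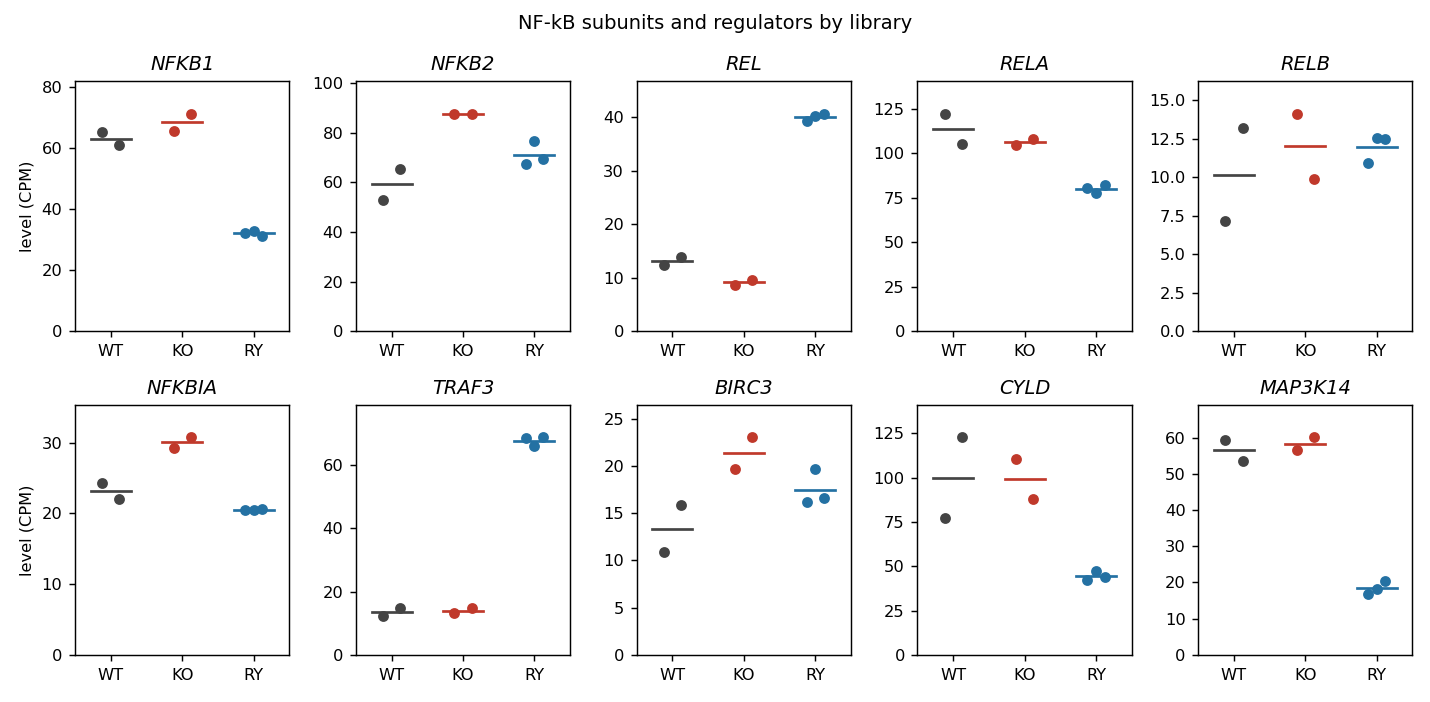
Level of each of the 10 genes in each library (CPM, linear axis from 0), with a line at the mean of 2 WT, 2 KO and 3 RY libraries. NFKB2, BIRC3 and NFKBIA lie higher and REL lower in both KO libraries than in either WT library, and the RY libraries stand apart for REL, TRAF3, NFKB1, RELA, CYLD and MAP3K14.

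For the other 6 genes KO and WT could not be separated at this number of libraries. TRAF3 was at 12.2 and 14.9 CPM in WT and at 13.1 and 14.7 CPM in KO, and the 95% interval of its log2 fold change ran from -0.26 to 0.33. MAP3K14 was at 59.5 and 53.5 CPM in WT and at 56.5 and 60.05 CPM in KO, with an interval from -0.22 to 0.31. For both genes the interval excludes a 2-fold difference. RELA was at 122 and 105 CPM in WT and at 105 and 108 CPM in KO (interval -0.33 to 0.13), and NFKB1 was at 65.1 and 60.9 CPM in WT and at 65.7 and 71.2 CPM in KO (interval -0.10 to 0.34), which gives the canonical pair a narrow range as well.

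CYLD and RELB varied between libraries of the same group. CYLD was at 77.1 and 123 CPM in WT and at 111 and 88.2 CPM in KO. RELB was at 7.13 and 13.2 CPM in WT and at 14.1 and 9.90 CPM in KO. Both genes were low in WT replicate 1 and KO replicate 2 and high in WT replicate 2 and KO replicate 1, so the groups overlapped and the intervals were wide (-0.46 to 0.44 for CYLD and -0.39 to 0.86 for RELB). In the authors' deposited table of KO against WT, which lists 2336 genes, none of the 10 appears.

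The RY edit was set against WT to ask how expression differs when the domain loses ubiquitin binding. Between the libraries labelled RY and WT, TRAF3 and REL were called higher and MAP3K14 and CYLD were called lower, 4 of the 10 genes, against 49.3% of all genes (23.9% higher and 25.4% lower). At an adjusted p under 0.05 and any fold the count was 6 of 10, against 73.0% of all genes, with NFKB1 and RELA added on the lower side, which held 4 of the 10 and 37.3% of all genes. The groups did not overlap for 9 of the 10, against 81.7% of all genes. The called share and the share at any fold were below those among all genes, and the lower side at any fold and the share without overlap were slightly above them. In bulk libraries fewer cells of a type and less RNA per cell cannot be told apart, and the part that the marker differences given above have in these values was not tested.

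TRAF3 and MAP3K14 had the largest differences from WT in each direction, while REL (log2 fold change 1.61) lay about as far from WT as MAP3K14 (-1.62). TRAF3, the adaptor through which NIK is degraded, was at 12.2 and 14.9 CPM in WT and at 68.4, 65.8 and 68.7 CPM in RY. The 3 RY libraries lay close together and far above WT, a 4.98-fold difference (log2 fold change 2.32, SE 0.12, adjusted p = 2.80e-07).

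MAP3K14, which encodes NIK, was at 59.5 and 53.5 CPM in WT and at 16.8, 18.1 and 20.4 CPM in RY. It was 3.07-fold lower in RY without overlap (log2 fold change -1.62, SE 0.11, adjusted p = 1.30e-06). Within each library the ratio of TRAF3 to MAP3K14 per kilobase, which does not depend on scaling, was 0.143 and 0.195 in WT, 0.162 and 0.171 in KO and 2.36 to 2.84 in RY. MAP3K14 was thus the more abundant of this pair in all 4 WT and KO libraries, and TRAF3 in all 3 labelled RY. The antisense gene MAP3K14-AS1 overlaps MAP3K14 and went the other way, with means of 3.71 CPM in WT, 3.77 CPM in KO and 13.9 CPM in RY. Whether the counting used strand is not given in the sources used here. Reads of this gene and its antisense partner may not be fully separated.

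CYLD, a deubiquitinase of the canonical pathway, was at 77.1 and 123 CPM in WT and at 42.5, 47.1 and 44.1 CPM in RY. All RY libraries were below both WT libraries, with a log2 difference of -1.17 (SE 0.18, adjusted p = 0.000321). That call rested on WT replicate 2: without it the log2 fold change was -0.80, under 2-fold. With library sizes not scaled for composition it was -0.97, since that setting moves the median of all genes by 0.19. BIRC3, the fourth regulator, was at 16.2, 19.6 and 16.6 CPM in RY, above the WT values by 0.38 on the log2 scale (adjusted p = 0.0755), which did not pass.

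Among the subunits REL was higher and NFKB1 lower in RY. REL was at 12.4 and 13.9 CPM in WT and at 39.4, 40.3 and 40.7 CPM in RY, which was 3.05-fold higher (log2 fold change 1.61, SE 0.11, adjusted p = 1.35e-06). NFKB1, the source of p50, was at 65.1 and 60.9 CPM in WT and at 32.0, 32.7 and 31.3 CPM in RY. Its difference of 1.97-fold (log2 fold change -0.98, SE 0.09, adjusted p = 8.86e-06) fell just short of the 2-fold minimum, while CYLD at 2.24-fold was the called gene nearest to it.

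NFKB1 passed that minimum in 4 of the 13 alternatives, among them leaving out WT replicate 2 (-1.03), KO replicate 2 (-1.02) and RY replicate 2 (-1.01). RELA, the main activating subunit of the canonical pathway, was at 122 and 105 CPM in WT and at 80.6, 77.4 and 82.0 CPM in RY, a log2 difference of -0.51 (SE 0.09, adjusted p = 0.000886). The uncharacterised gene AP001362.2 overlaps RELA on the opposite strand, with a mean of 4.90 CPM in WT and 1.30 CPM in RY.

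The ratio of REL to RELA per kilobase within a library was 0.0422 and 0.0549 in WT, 0.0346 and 0.0370 in KO and 0.203 to 0.216 in RY. The subunits of the alternative pathway showed no such contrast. NFKB2 was at 67.5, 76.5 and 69.5 CPM in RY (log2 fold change against WT 0.26, interval 0.01 to 0.52, adjusted p = 0.0583), and RELB at 10.95, 12.5 and 12.5 CPM (0.23, interval -0.34 to 0.80). NFKBIA was at 20.5, 20.5 and 20.7 CPM in RY, just below both WT libraries (log2 fold change -0.17, interval -0.40 to 0.05). The ratio of NFKB2 to NFKB1 per kilobase was 1.14 and 1.503 in WT, 1.87 and 1.72 in KO and 2.94 to 3.27 in RY.

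**Figure D3:**
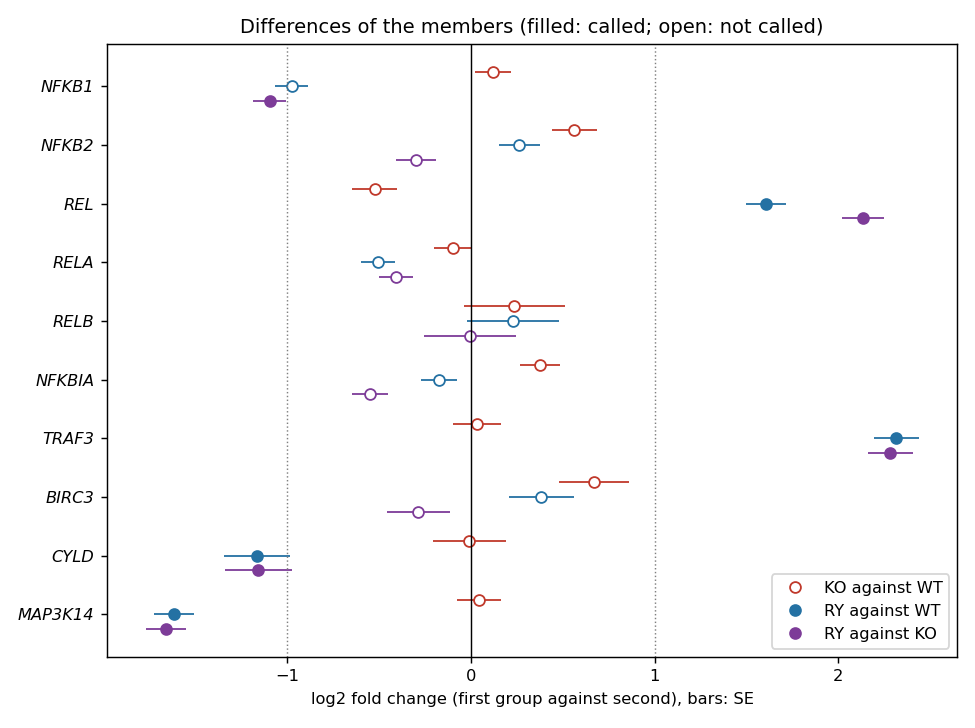
Log2 fold change of each gene for KO against WT, RY against WT and RY against KO, with bars of 1 SE, filled where called and open where not, and dotted lines at 2-fold. The KO against WT points all lie inside the 2-fold lines, and TRAF3 (2.32), REL (1.61), CYLD (-1.17) and MAP3K14 (-1.62) lie outside them for RY against WT.

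The authors' deposited table of RY against WT lists 9877 genes, and the same 4 of the 10 are among them. It gives log2 fold changes of 2.33 for TRAF3, 1.62 for REL, -1.61 for MAP3K14 and -1.15 for CYLD.

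Set directly against KO, the libraries labelled RY differed in 5 of the 10 genes, against 50.0% of all genes (24.2% higher and 25.9% lower). REL was 4.38-fold higher in RY than in KO (log2 fold change 2.13, SE 0.11, adjusted p = 2.47e-07) and TRAF3 4.87-fold higher (2.28, SE 0.12, adjusted p = 2.49e-07). Lower in RY were MAP3K14 with a log2 difference of -1.66 (SE 0.11), CYLD with -1.16 (SE 0.18) and NFKB1 with -1.10 (SE 0.09), with adjusted p-values of 9.85e-07, 0.000330 and 3.85e-06.

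At any fold 8 of the 10 had an adjusted p under 0.05, against 73.9% of all genes, the further ones being NFKB2 (-0.30), RELA (-0.41) and NFKBIA (-0.55), each lower in RY. That put 6 of the 10 on the lower side, against 37.9% of all genes, and the groups did not overlap for 9 of the 10, against 84.6%. Without KO replicate 1 the log2 fold change of CYLD was -0.99 and its call was lost. Both comparisons with RY use the same 3 libraries.

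Each gene was also set beside its neighbours on the chromosome, taken as the tested protein-coding genes within 5 Mb. Around TRAF3 (chr14:102777476-102911500, GRCh38, GENCODE release 29) the median log2 fold change of RY against WT over 63 neighbours was 0.75, and 11 of them lay above TRAF3. Around MAP3K14 (chr17:45263119-45317145) it was -0.09 over 158 neighbours, and 30 lay below MAP3K14. REL (chr2:60881521-60931610) stood above all 30 of its neighbours, whose median was 0.17, and in KO against WT it stood below all 30, whose median was 0.04.

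Around CYLD (chr16:50742050-50801935) the neighbours' median was -0.52 over 36 genes, and around NFKB1 (chr4:102501329-102617302) it was 0.29 over 30 genes, 4 of which lay below NFKB1. In KO against WT the 3 genes with higher levels lay high among their neighbours: 2 of 19 neighbours exceeded BIRC3, 7 of 80 exceeded NFKB2 and 3 of 32 exceeded NFKBIA. These positions are descriptions with no test, and a gene picked for its difference will tend to rank far from its neighbours.

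**Figure D4:**
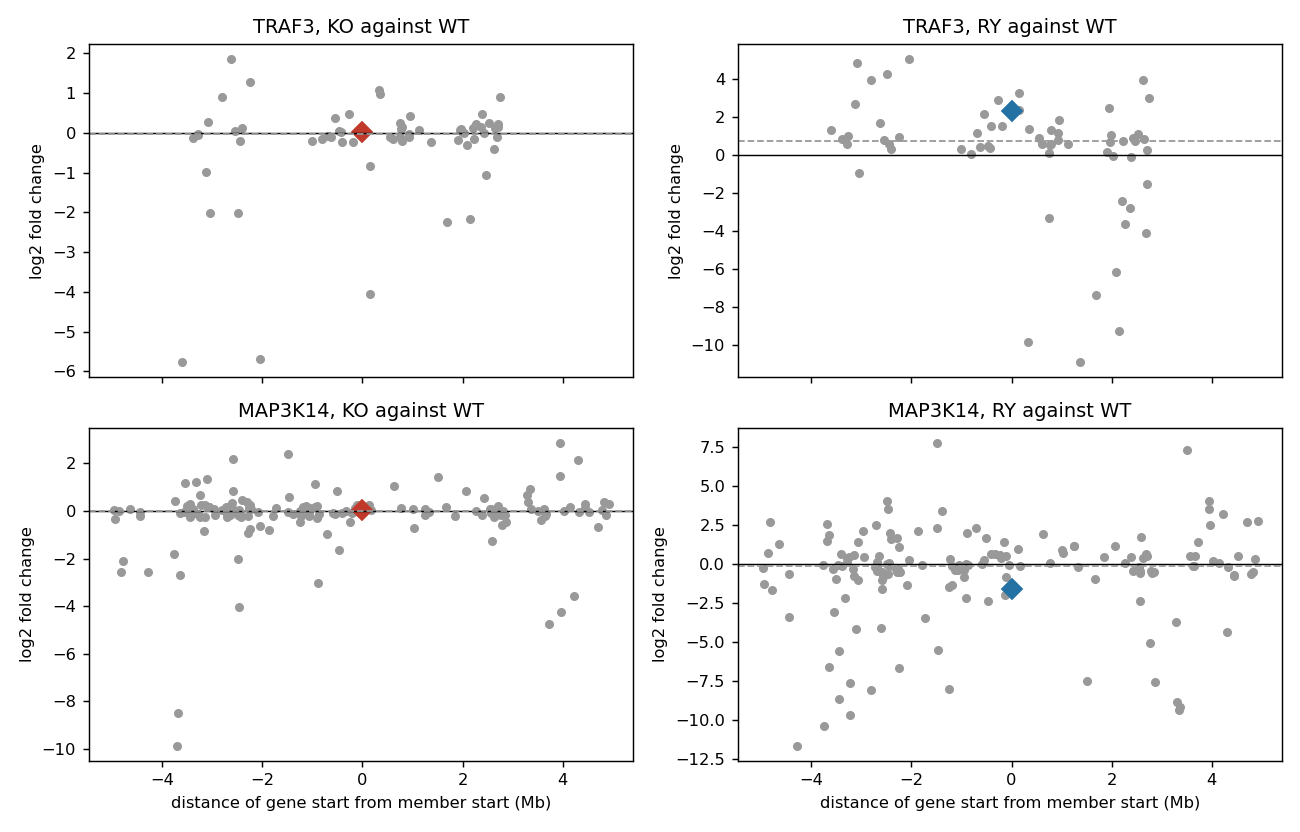
Log2 fold change of tested protein-coding genes within 5 Mb of TRAF3 and of MAP3K14 against the distance of gene starts (Mb), for KO against WT and RY against WT, with the gene itself as a diamond and the neighbours' median as a dashed line. In RY against WT the neighbours of TRAF3 have a median of 0.75 and those of MAP3K14 a median of -0.09, while the genes themselves stand at 2.32 and -1.62.

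The rest of the pathway was read from 9 lists, which hold 105 genes outside the 10, of which 92 were tested. Between KO and WT 5 of the 92 were higher and 16 lower, 22.8% in all against 10.9% of all genes, and their median log2 fold change was -0.14, beside -0.01 over all genes. Between RY and WT 31 were higher and 27 lower, 63.0% against 49.3% of all genes, with a median of -0.07 beside -0.03 over all genes. Between RY and KO 32 were higher and 24 lower, 60.9% against 50.0% of all genes. The lists were chosen with earlier results of these data known, and what that choice adds to these shares was not tested.

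In KO no gene of the other IkappaB proteins (6 tested), the IkappaB kinase complex and its relatives (7), the TRAF and IAP adaptors (9) or the ubiquitin editors (10) was called. TNFAIP3, the A20 ubiquitin editor that NF-kappaB induces, was at 14.3 and 16.9 CPM in WT and at 22.9 and 25.4 CPM in KO, which is a log2 difference of 0.63 (SE 0.15, adjusted p = 0.0195), less than 2-fold. The calls of KO against WT lay in the TAK1 and antigen receptor branch (0 higher and 2 lower of 11), the receptors (1 and 4 of 14), the ligands (1 and 4 of 8) and the known targets (3 and 6 of 27).

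The genes lower in KO went both ways in the libraries labelled RY. LTBR, the lymphotoxin beta receptor that signals through NIK, was at 4.69 and 6.14 CPM in WT, at 0.113 and 0.180 CPM in KO and at 86.5, 90.0 and 87.4 CPM in RY. PRKCB, a protein kinase C of lymphocyte antigen receptor signalling, was at 12.5 and 19.9 CPM in WT, at 1.74 and 1.53 CPM in KO and at 214, 225 and 225 CPM in RY. TNFSF13B, which encodes the BCMA ligand BAFF, was at 1.97 and 4.60 CPM in WT, at 0.450 and 0.330 CPM in KO and at 57.9, 49.5 and 50.8 CPM in RY. TLR7, a Toll-like receptor that senses RNA, was at 16.5 and 27.6 CPM in WT, at 3.04 and 0.720 CPM in KO and at no more than 0.0963 CPM in any RY library. CXCL10, a chemokine gene, was at 12.9 and 4.32 CPM in WT, at 1.80 and 1.80 CPM in KO and at 2.00, 3.54 and 1.54 CPM in RY. Both TLR7 and CXCL10 were named after their values were seen. The part of the marker differences between WT and KO in these values was not tested. The KO call of TNFSF14, which encodes an LTBR ligand, was lost without KO replicate 1 (-2.60), and the cytokine gene IL1B had 85 reads in WT and 1 in KO.

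The ligand higher in KO was LTB, lymphotoxin beta, named here after its values were seen. It was at 1.36 and 2.71 CPM in WT and at 13.1 and 11.1 CPM in KO, a log2 difference of 2.55 (SE 0.30, adjusted p = 0.000403). Known targets of NF-kappaB had a median log2 fold change of -0.09 in KO and -0.15 in RY. ICAM1, an adhesion molecule among them, was at 183 and 239 CPM in WT, at 220 and 221 CPM in KO and at 16.6, 16.0 and 18.8 CPM in RY. CD83, a marker of activated B and dendritic cells, was at 28.4 and 29.2 CPM in WT, at 13.2 and 12.2 CPM in KO and at 80.9, 76.0 and 85.8 CPM in RY.

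An index of 11 genes used to score NF-kappaB activity in myeloma shares BIRC3, NFKB2, RELB and NFKBIA with the 10 genes. In KO, IL2RG and WNT10A of this index were higher and PLEK was lower. The median log2 fold change of the 11 was 0.37, the value of the shared gene NFKBIA, so it is no reading apart from the 10 genes. IL2RG, the common chain of several cytokine receptors, was at 4.28 and 9.57 CPM in WT, at 15.9 and 18.8 CPM in KO and at 92.5, 91.6 and 89.4 CPM in RY. The KO calls of IL2RG and of WNT10A, a secreted WNT ligand, were lost without WT replicate 1, where their log2 fold changes were 0.85 and 0.97. In RY against WT TNFAIP3, IL2RG and PLEK of the index were higher and CD74 and WNT10A lower. The 6 others, among them the 4 shared genes, were not called. The median was 0.26, the value of the shared gene NFKB2.

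**Figure D5:**
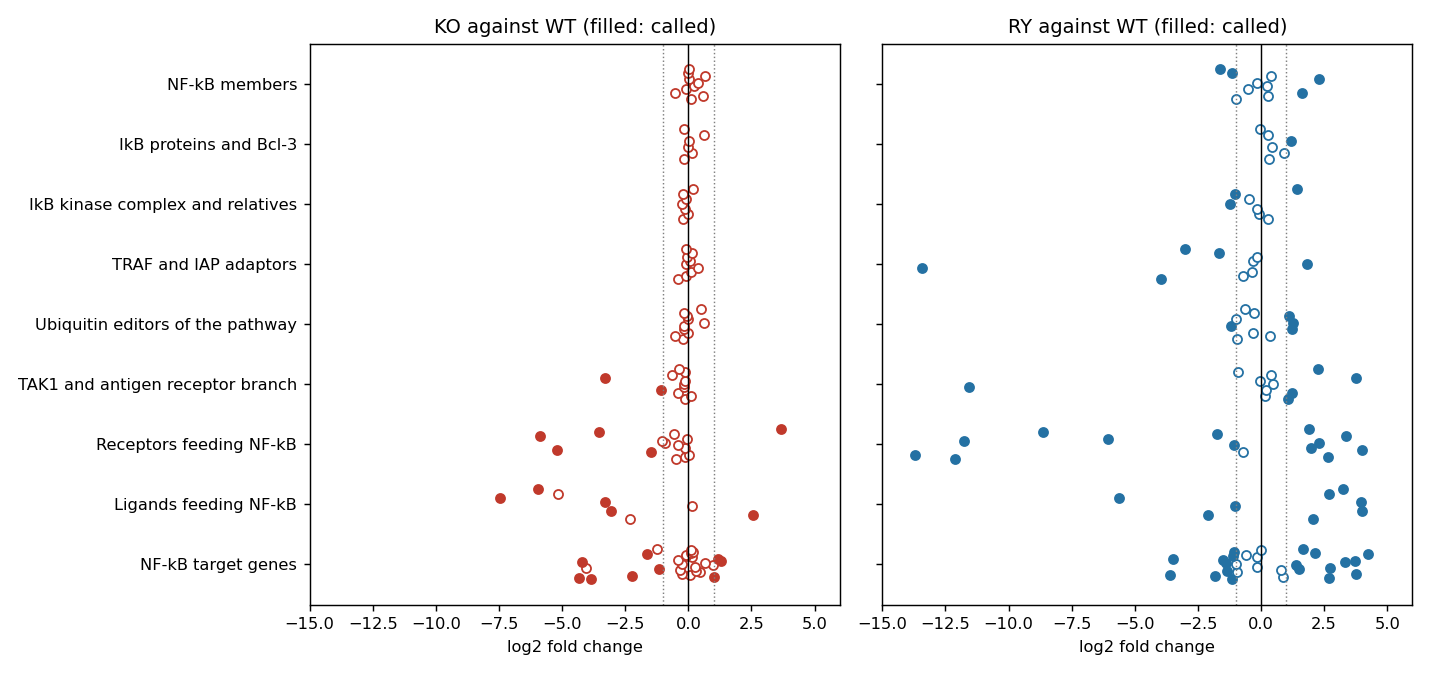
Log2 fold change of every tested gene of each pathway list for KO against WT and RY against WT, filled where called and open where not, with dotted lines at 2-fold. In KO the calls lie among the receptors, ligands and targets and in the antigen receptor branch, and in RY they are found in every list.

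In the libraries labelled RY every list held calls, as 49.3% of all genes were called. Of the TRAF and IAP adaptors 1 of 9 was higher and 4 were lower than in WT. TRAF5, an adaptor of TNF family receptors, was at 31.0 and 43.1 CPM in WT and at 51.2 and 46.0 CPM in KO, and had no reads in RY, at least 1428-fold lower than in WT with 3 reads over the group as the floor. TRAF6, the adaptor of Toll-like and interleukin receptors, was 3.51-fold higher and TRADD, the adaptor of the TNF receptor, was 8.09-fold lower (log2 fold changes 1.81 and -3.02).

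Of the ubiquitin editors 3 of 10 were higher, namely OTULIN (log2 fold change 1.22), TNFAIP3 (1.27) and TNIP2 (1.10), and 1 was lower. Of the kinase complex and relatives AZI2 was higher (1.42) and IKBKE (-1.25) and TANK (-1.03) were lower, and the call of TANK was lost without WT replicate 2 (-0.81). Of the 6 other IkappaB proteins NFKBID was the gene called, higher by 1.19, while NFKBIB and NFKBIE stood at 0.30 and 0.91.

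Of the antigen receptor branch 4 of 11 were higher and 1 lower, of the receptors 6 of 14 higher and 7 lower, of the ligands 5 of 8 higher and 3 lower, and of the targets 10 of 27 higher and 9 lower. IRAK4, a kinase of Toll-like receptor signalling, was 4.78-fold above WT. TNFRSF17, which encodes BCMA and is also on the plasma cell list, had no reads in RY, at least 1717-fold lower than in WT, while WT (41.3 and 48.2 CPM) and KO (43.6 and 46.6 CPM) overlapped. TNFRSF13B, which encodes TACI, had 2 reads in RY and was 5419-fold lower than in WT, with a counting interval from 1500 to 44758.

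By Euclidean distance of centred log2 CPM over the 7 libraries, a description over libraries that share a group, NFKB2 and BIRC3 were nearest to each other among the 10 genes (distance 0.29). REL and TRAF3 were also nearest to each other, at 0.81. Of the 92 listed genes outside the 10, the gene nearest to RELA was TBK1, a kinase related to the IkappaB kinases (0.13), and that nearest to MAP3K14 was RIPK1, a kinase of TNF receptor signalling (0.23). For TRAF3 it was the TNF receptor gene TNFRSF1A and for REL it was TRAF6, at distances of 0.47 and 0.48.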

How the data were processed

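RNA was extracted with a total RNA kit and made into stranded TruSeq libraries, per the labels' protocols. The authors deposited raw read counts per Ensembl gene, which entered every test. Tools named in the submitters' processing notes, without roles, are STAR 2.7.4, HTSeq 0.9.1, edgeR 1.34.1 and FastQC, on GRCh38. Overlapping genes are uncertain, since annotation release and strand setting are not given in the sources used here. For each edited line, a second deposited table compares it with WT by log2 fold change, F score and p-value. These were used only to look up the 10 genes, and no listed gene lies under 2-fold or at an adjusted p over 0.05.

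All 7 libraries, grouped by their titles, entered a single fit of edgeR 4.0.16 in R 4.3.3 with a term per group. Low genes were removed by filterByExpr (minimum count 10), leaving 18281, TMM scaled the libraries, and p-values from the quasi-likelihood test were adjusted by Benjamini-Hochberg over all genes. Calls needed an adjusted p under 0.05 together with a 2-fold difference. The SE is the absolute log2 fold change divided by the square root of F, and 95% intervals use the test's degrees of freedom. Folds are fitted, except that a fold against a group with at most 3 reads is a ratio of reads over scaled library sizes. Floors and counting intervals cover counting error only. The test was also run on simulated counts with the same spread for every gene and few changed genes, a simpler setting than these libraries. DESeq2 1.42.0, other scalings, no filter, fits of 2 groups, a replicate block and leaving out each library were tried. A crossed replicate block for KO against WT was added after seeing the data.

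Libraries of a group were compared before averaging. Per gene with 20 or more summed reads, chi-square averaged 77.7 for the WT pair, 27.8 for the KO pair and 7.88 to 16.3 for RY pairs, so none repeated another within sampling noise. Between a WT and a KO library it averaged 63.9 to 108, so by this measure the WT pair lay as far apart as some WT and KO pairs. The correlation of log2 CPM was 0.986 for the WT pair and 0.946 to 0.958 between WT and KO.

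Besides the 10 genes and HDAC6, the text names up to 3 called genes of each pathway list by adjusted p, its most abundant genes where fewer than 2 were called, all genes of the myeloma index and the genes nearest in pattern. A gene that this rule names is not reported here. A planned share of the RY level in WT is not given, because its genes were chosen by their low level in KO. The 10 genes, the lists and the rules were chosen with earlier results of these data known. Gene positions and union exon lengths come from GENCODE release 29. Of the listed targets, SOD2 was not matched to an identifier.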

Additional observations from a re-analysis of the deposited data

How the results depend on the processing

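The counts of the 10 genes called were 0 in KO against WT in all 14 alternatives, 3 to 5 in RY against WT and 4 to 5 in RY against KO in 13 each. Over all genes the counts ran from 1462 to 2327, from 8621 to 10199 and from 8801 to 10305. Library sizes alone moved the median of all genes by 0.19 in RY against WT and by 0.14 in RY against KO. Under that setting CYLD (-0.97) and TANK (-0.84) lost their RY against WT calls, NFKBIE gained one (1.10), and NFKB1 (-0.95), CD74 (-0.96) and IKBKE (-0.86) lost their RY against KO calls. IKBKE lost that call also without the filter (-0.998) and by DESeq2 (-0.999). In fits of only the 2 groups compared NFKB1 gained a call in RY against WT (-1.06), and IL2RG (1.31) and TNFSF14 (-3.30) lost theirs in KO against WT.

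Differences near 0 changed sign. In KO against WT these were TNFRSF17 (-0.0099 with DESeq2 size factors and -0.017 by DESeq2), CYLD (0.034 with library sizes alone) and NFKBID (-0.00047 by DESeq2). In RY against WT they were NFKBIA (0.020) and MALT1 (0.14) with library sizes alone, and in RY against KO RELB (0.14 with library sizes alone, 0.0034 without the filter and 0.0039 by DESeq2). None of these was called.

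On leaving out 1 library at a time, KO against WT ran from -0.21 to 0.013 for RELA, -0.14 to 0.75 for RELB, -0.11 to 0.18 for TRAF3, -0.31 to 0.36 for CYLD, -0.033 to 0.12 for MAP3K14, -0.12 to 0.26 for ICAM1, -0.099 to 0.12 for TNFRSF17, -0.21 to 0.25 for NFKBID, -0.21 to 0.065 for TRADD and -0.12 to 0.048 for TNIP2. RY against WT ran from -0.15 to 0.74 for RELB and -0.13 to 0.014 for MALT1, and RY against KO from -0.31 to 0.27 for RELB and -0.0098 to 0.090 for MALT1. NFKBID lost its RY against KO call without KO replicate 1 (0.93) and without RY replicate 2 (0.98), and IKBKE without RY replicate 2 (-0.94). The cause of these changes was not tested.

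Replicate numbers are shared across groups, but nothing in the labels pairs them: deviations of same-numbered libraries correlated at -0.30 for WT and KO, 0.08 and 0.13 for WT and RY, and -0.05 and -0.13 for KO and RY. With a replicate block 1603 genes were called in KO against WT and none of the 10 genes, 8708 and 4 in RY against WT, and 8835 and 5 in RY against KO, and CYLD in KO against WT stood at 0.020. In KO against WT the block put the adjusted p of NFKB2 at 0.0535, BIRC3 at 0.0580, REL at 0.115 and NFKBIA at 0.252, all above 0.05. The crossed pairing, WT replicate 1 with KO replicate 2, was added after seeing the data. It called 2204 genes and none of the 10 in KO against WT, with CYLD at 0.018, and adjusted p-values of 2.35e-05 for NFKB2, 0.000552 for BIRC3, 0.00845 for REL and 0.0124 for NFKBIA. With 2 libraries in a group, differences under 2-fold rest on few degrees of freedom.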
